A study of Mus musculus with 18 samples.

Results

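Bulge cells that had not divided during a short doxycycline chase were compared with non-bulge skin cells of the same mice at postnatal day 25 (PD25). The comparison rests on 6 of the study's 18 arrays, chosen by their titles: 3 arrays of bulge cells with 0 divisions and 3 of non-bulge cells, with mice numbered 1, 2 and 3 giving 1 array of each. All mice were K5tTA x pTRE-H2B-GFP double transgenics, bred from K5tTA (FvB) and pTREH2B-GFP (CD1) parents, so that the keratin 5 promoter drove a histone H2B-GFP label in epithelial cells and doxycycline in the food shut it off. The undivided bulge cells at PD25 came from a chase begun at PD22, carried the bulge surface markers CD34 and alpha 6-integrin, and retained the full label. The non-bulge cells came from the same chase and lacked the bulge surface profile. The labels assign them no division number, so their division history is not known here. Further arrays hold divided bulge cells (1 to 2 divisions) of the same mice and the same fractions of 3 other mice chased from PD18 to PD21. These are used here only where they bear on the undivided bulge. Per the labels, RNA was measured on Affymetrix mouse arrays after amplification from 5 ng.

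The bulge is the stretch of the outer root sheath that houses the hair follicle's stem cells. These cells divide rarely, are held quiet by bone morphogenetic protein (BMP) signals, and are activated by Wnt signals when a new hair grows. The other keratin 5-positive cells of a skin suspension belong to the basal interfollicular epidermis, the follicle mouth and isthmus, the sebaceous gland and the lower follicle.

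Values below are log2(signal + 16) unless stated otherwise, listed for mice 1, 2 and 3 in that order, and a log2 fold change is undivided bulge minus non-bulge within mice. Adding 16 understates the change of dim genes. "Rose" and "fell" are used for genes with a Benjamini-Hochberg adjusted p under 0.05 in limma over all 11569 genes tested, with the mouse as a block, and ± gives the standard error (SE) of that fit with 3 mice a group. Cd34, by which the cells were sorted, checks the labels: it stood at 12.50, 12.24 and 12.42 in undivided bulge cells, against 5.24, 5.55 and 4.12 in non-bulge cells. The undivided cells held 11.73, 11.88 and 11.76 for Lhx2, a LIM-homeobox factor of the bulge that was not used in sorting, against 7.83, 7.62 and 7.33 in non-bulge cells. The 2 groups lay far apart for both genes. Itga6, which encodes alpha 6-integrin, had values that overlapped between the fractions, at 13.29, 12.94 and 12.35 in undivided bulge against 13.44, 12.62 and 12.83 in non-bulge. The keratinocyte genes Krt5 and Trp63 were bright on all 6 arrays, with log2 fold changes of -0.08 and -0.03 that did not pass the test.

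Markers of other cell types were low for the most part, but each list held some above the array median on some of the 6 arrays. Of 24 immune and Langerhans cell markers on the array, 13 could be tested and none passed. Their summed signal was 5369 to 7330 in undivided bulge and 4471 to 11304 in non-bulge arrays. Ptprc and Cd207 never exceeded the array median, but 10 of the 24 did on some of the 6 arrays, with Laptm5 and Epcam above it on all 6. Csf1r was above it on every undivided bulge array (signals 65.1, 168.3 and 292.3) and on no non-bulge array (34.3, 2.3 and 89.2). Dermal markers summed to 12781 to 15538 in undivided bulge and 7048 to 12645 in non-bulge arrays. Of 20 on the array, 10 exceeded the array median on some of the 6 arrays, and Thy1, Vim and Sparc did so on all 6. Others, among them Pdgfra, Dcn, Lum, Twist1 and Twist2, were below it throughout. Of 10 dermal markers that could be tested, Crabp1, Col6a1 and Col1a1 rose and Thy1 fell. Melanocyte markers summed to 1306 to 1403 in undivided bulge and 363 to 690 in non-bulge arrays, with Tyr, Mlana, Sox10 and Kit below the median throughout. Of 4 melanocyte markers that could be tested, 2 rose: Mitf, which was above the median on all 6 arrays, by 2.00 log2 units, and Dct by 2.22. The endothelial and mural sums of 5650 to 6241 in undivided bulge and 566 to 742 in non-bulge followed Cspg4, which is also a bulge gene, while Cdh5 and Kdr were below the median on all 6 arrays. Erythroid and adipocyte markers summed to 868 to 1266 in undivided bulge and 1827 to 2756 in non-bulge, led by Lpl. Merkel, neural and glial markers summed to 877 to 992 in undivided bulge and 753 to 1058 in non-bulge, with Krt8 (2.89) and Ngfr (2.41) higher and Mbp (-2.33) lower among the 5 that could be tested. Muscle markers summed to 401 to 481 in undivided bulge and 255 to 811 in non-bulge. In sorted bulk RNA, fewer cells of a type and less RNA per cell cannot be told apart.

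Array quality was read from the scaling, the Gapdh probe sets and the spike-in controls. Each array had been scaled to a 2% trimmed mean of 500, and median signals ran from 61.8 to 106. Gapdh 3' to 5' signal ratios were 9.46, 5.95 and 5.00 in undivided bulge and 9.96, 4.11 and 6.52 in non-bulge arrays, so mouse 1 stood highest in both fractions. Hybridisation spike-in controls put PD25 mouse 1 in a set of dimmer controls (set A) and mice 2 and 3 in a set of brighter ones (set B), with both fractions of a mouse always in the same set. The labels name no such batch.

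Undivided bulge cells differed from non-bulge cells in 1700 of 11569 genes (14.7%), of which 929 (8.03%) rose and 771 (6.66%) fell. A change of more than 1 log2 unit was seen in 1329 of the 1700, 736 upward and 593 downward. The direction was the same in all 3 mice for 1682 of the 1700, against 5026 of all 11569 genes tested. The 3 undivided bulge values lay wholly outside the non-bulge values for 1527, where 24.4% of all genes tested had groups without overlap. Both counts come from the values that the test used. The median log2 fold change over all genes was -0.02. Without mouse 1, 1049 genes passed. Within spike-in set A, where a single PD25 mouse is assumed to vary like the others, 796 genes passed (388 higher, 408 lower), and within set B 1118 (664 higher, 454 lower).

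**Figure D1:**
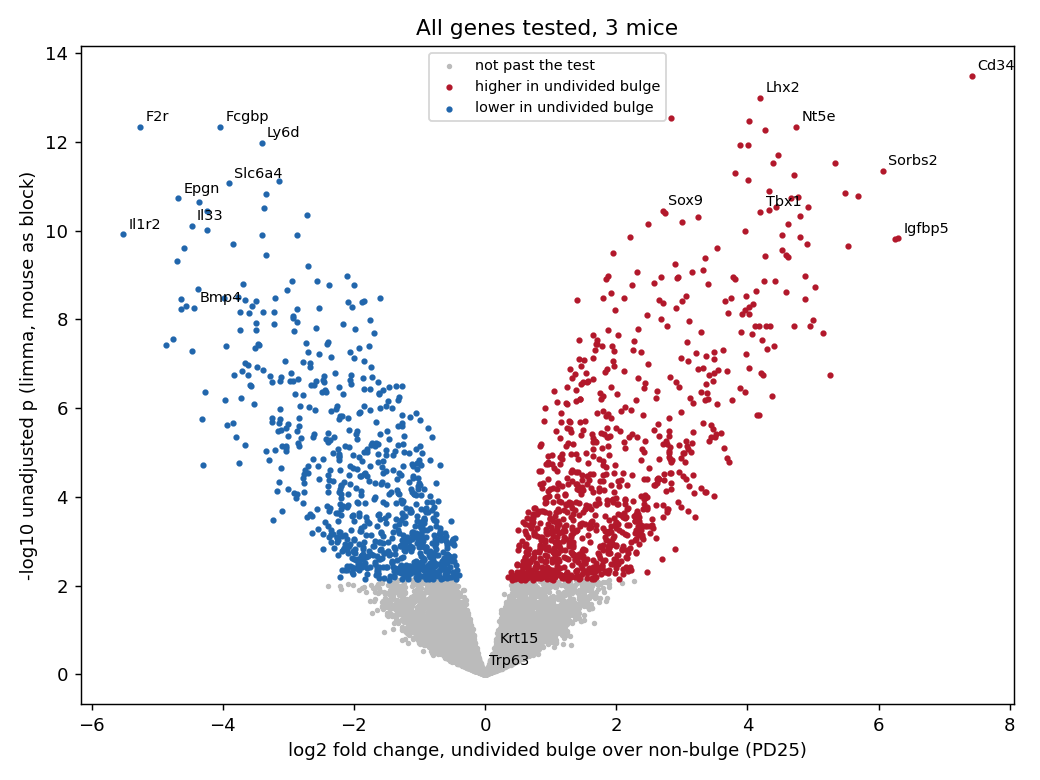
Each point is 1 of 11569 genes, with the log2 fold change of undivided bulge over non-bulge at PD25 on the x axis and -log10 of the unadjusted limma p on the y axis; red and blue genes passed the adjusted threshold upward (929) and downward (771). Lhx2, Cd34 and Sorbs2 lie far to the upper right and F2r, Fcgbp and Ly6d to the upper left, while Krt15 and Trp63 lie near 0.

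The largest increase after Cd34 was in Igfbp5, a secreted insulin-like growth factor binder, with 11.56, 11.55 and 11.61 in undivided bulge against 4.07, 6.36 and 5.38 in non-bulge (log2 fold change 6.30 ± 0.55, SE). Crabp1, a cytoplasmic retinoic acid binder, had 11.12, 10.81 and 10.06 in undivided bulge against 4.56, 4.28 and 4.39 in non-bulge (6.25 ± 0.55). Sorbs2, an adaptor of actin attachment sites, had 10.74, 10.75 and 10.19 against 5.17, 4.10 and 4.19 in the same order (6.07 ± 0.44). Non-bulge values of these 3 genes were dim, and none of their undivided bulge values came close to them. The endocytic adaptor Dab2 (5.69), the collagen chain gene Col8a2 (5.54), Armcx2 (5.49), the keratin-associated protein gene Krtap17-1 (5.34), the RNA binder Pcbp3 (5.26), the kinase gene Speg (5.15) and the homeobox gene Hoxd8 (5.03) followed. The sulfotransferase gene Chst2 (5.00), the insulin receptor adaptor Grb14 (4.95), Pdlim3 (4.93) and the calcium pump Atp2a3 (4.91) completed the 15 largest increases.

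The steepest fall was in Il1r2, the decoy receptor of interleukin 1, with 5.19, 6.64 and 6.48 in undivided bulge against 12.04, 11.29 and 11.54 in non-bulge (log2 fold change -5.52 ± 0.47). F2r, the thrombin receptor, had 6.83, 8.01 and 6.02 in undivided bulge against 12.58, 12.16 and 11.89 in non-bulge (-5.26 ± 0.34). Epgn, which encodes the epidermal growth factor (EGF) family ligand epigen, had 7.05, 7.16 and 6.96 against 10.997, 12.72 and 11.49 in the same order (-4.68 ± 0.36). All 3 were bright in every non-bulge array and at least 3 log2 units lower in every undivided bulge array. The sialyltransferase St3gal6 (-4.87), the matrix protein tenascin X (Tnxb, -4.76), the kinase Pak6 (-4.70), Ripply3 (-4.63), Cpxm2 (-4.60) and 4930550C14Rik (-4.56) also fell. So did the alarmin Il33 (-4.47), the peptide hormone gene Adm (-4.46), the ligand Bmp4 (-4.44), the sugar transporter Slc2a12 (-4.37), the Wnt target Tnfrsf19 (-4.36) and the lipid receptor S1pr3 (-4.32).

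**Figure D2:**
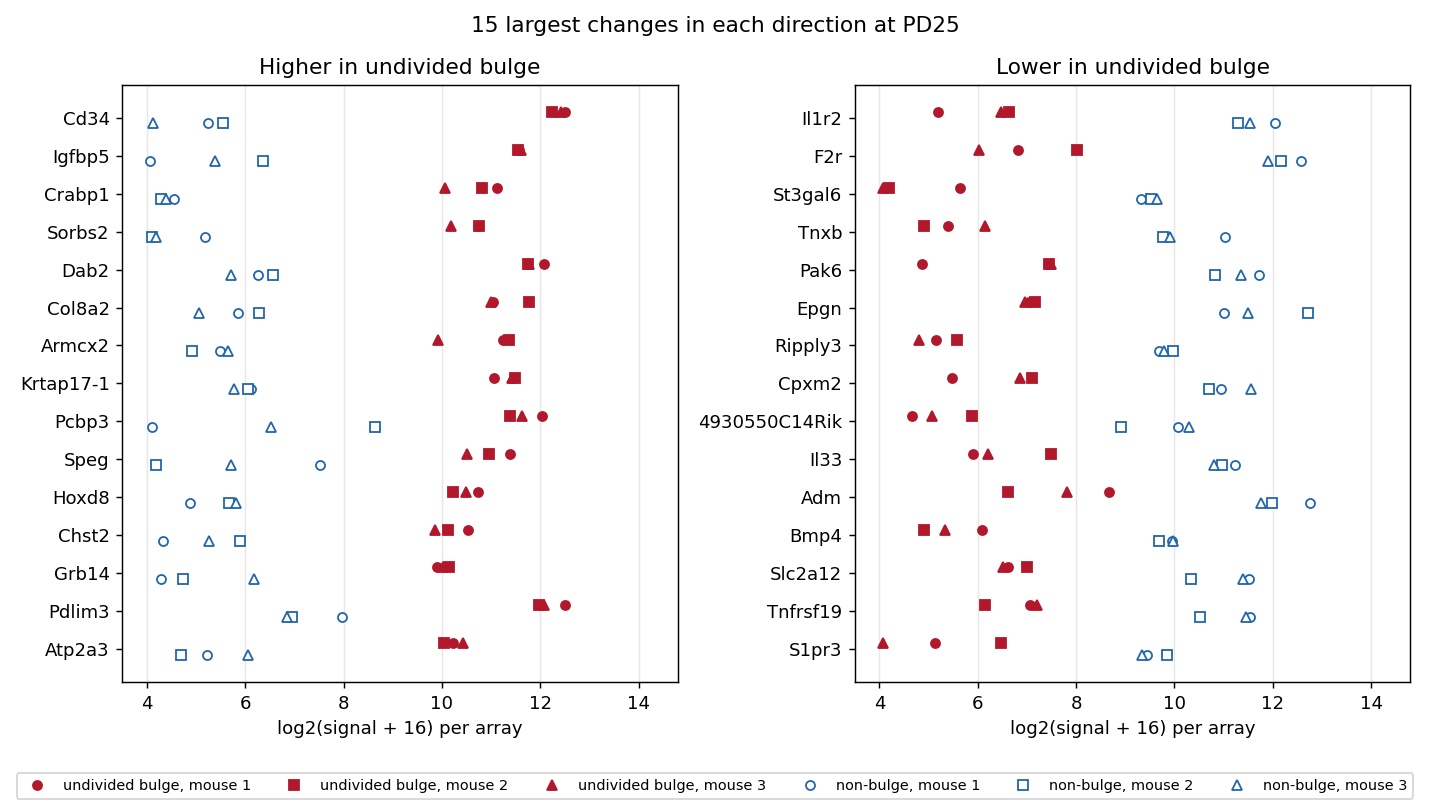
Values of log2(signal + 16) on each array for the 15 largest increases (left panel) and the 15 largest decreases (right panel) among bright genes; red filled symbols are undivided bulge and blue open symbols non-bulge, with 1 symbol shape per mouse. The genes were chosen among those that passed with the same sign in 3 mice and no overlap between the fractions, so the gap between red and blue points is part of the choice.

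Transcription factors tied to the bulge rose in 12 of 16 cases and fell in none, with a list median of 1.73. This list and the others were written with earlier results of these data known. Tbx1, a T-box factor of hair follicle stem cells, had 12.51, 12.41 and 12.33 in undivided bulge against 7.26, 8.84 and 8.55 in non-bulge (log2 fold change 4.20 ± 0.34, adjusted p = 1.23e-08). Lhx2 rose by 4.19 ± 0.25 and Sox9, which is needed to form the bulge, by 2.71 ± 0.22. Nfatc1, which restrains bulge cell division, rose by 1.76, Runx1 by 2.11, the Wnt-pathway repressor Tcf7l1 by 2.63 and Nfib by 1.09. Id4 (3.08), Id2 (2.78), Tcf7l2 (1.70), Foxc1 (1.62) and Gli3 (1.23) were the others that rose. The fold changes of Barx2 (1.17), Nfix (0.14), Hopx (-0.05) and Gata6 (-1.46) did not pass the test.

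Of 20 bulge surface and secreted markers, 14 rose and none fell, with a median of 2.07, and Cd34 and Itga6 among the 20 were the sorting markers. The list holds Cd200 (3.69), a surface glycoprotein used to isolate bulge cells, the nephronectin gene Npnt (1.71), the matrix gene Postn (1.64) and the Wnt receptor partner Lgr5 (2.44), which marks cycling lower bulge cells. Krt15, a keratin widely used to mark the bulge, did not differ detectably. It stood at 15.71, 14.72 and 14.57 in undivided bulge against 15.74, 14.27 and 14.55 in non-bulge (0.15, adjusted p = 0.535). These values were among the brightest on the arrays in both fractions and overlapped fully.

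Factors of the epidermis and follicle mouth moved mostly the other way, with 7 of 18 lower, 3 higher and a median of -0.68. Sox6 fell by 3.52 ± 0.51, Ehf fell by 3.04 ± 0.52, Klf5 by 2.71 ± 0.26 and Gata3 by 1.52 ± 0.22. Ovol1 (-2.06), Grhl3 (-1.55) and Tfap2c (-1.15) were the other falls. Prdm1 (2.18), Bnc1 (1.87) and Tfap2b (1.30) rose. Homeobox genes, which set regional identity, rose in 14 of 29 cases and fell in 1, with a median of 0.94. Hoxd8 had 10.74, 10.22 and 10.49 in undivided bulge against 4.88, 5.68 and 5.81 in non-bulge. The hair shaft regulators Hoxc13 (3.55 ± 0.46) and Dlx3 (3.06 ± 0.59) rose along with Dlx2 (2.80), Dlx5 (1.95), Irx1 (2.19), Irx4 (1.59), Irx5 (1.79) and Pbx3 (2.90), while Hoxc4 fell by 2.01 ± 0.37. Homeobox calls of either direction numbered 9 in place of 15 without mouse 1 and 10 without mouse 2.

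Wnt genes moved in both directions and are given here by role. Among 14 ligand and ligand secretion genes, 5 fell and 1 rose, and the median was -1.19. Wnt3 had 5.49, 6.13 and 5.40 in undivided bulge against 9.91, 8.86 and 10.10 in non-bulge (log2 fold change -3.95 ± 0.47). Wnt10a (-2.77), Wnt16 (-2.31), Wnt4 (-1.51) and Wls, the carrier that brings Wnt proteins to the cell surface (-0.79), fell too. The exception was Wnt5b, a ligand that often signals without beta-catenin, at 10.34, 10.49 and 10.40 in undivided bulge against 6.80, 7.89 and 6.45 in non-bulge (3.36 ± 0.42). Its 3 undivided bulge values were nearly equal, and all lay above every non-bulge value.

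Of 5 genes in the list of secreted Wnt inhibitors that were measured above the filter, 3 rose in the undivided bulge and 1 fell. Sfrp1, which binds Wnt proteins outside the cell, had 13.91, 13.46 and 13.07 in undivided bulge against 10.19, 8.98 and 9.24 in non-bulge (4.01 ± 0.27). Dkk3, of the Dickkopf family, had 13.52, 13.29 and 13.18 against 8.87, 8.95 and 9.37 in the same order (4.27 ± 0.28). Both were bright in every undivided bulge array. Wif1 rose by 1.68 ± 0.52, whereas Apcdd1, a membrane-bound inhibitor, fell by 1.87 ± 0.20. The other 8 genes of the 13 listed stayed below the filter on dim signal.

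Wnt receptors and their partners rose in 8 of 19 cases and fell in 2, with a median of 0.78. Fzd2 had 13.45, 12.91 and 12.46 in undivided bulge against 9.84, 8.47 and 9.06 in non-bulge (3.81 ± 0.28). Fzd1 (2.94), Fzd3 (2.83), Fzd7 (2.21), Lgr4 (1.49), Ryk (0.84) and the co-receptor Lrp6 (0.75) rose as well. Fzd10 fell by 2.83 ± 0.45 and Lrp4, which binds the inhibitor sclerostin, by 2.71 ± 0.22. Frizzled genes thus moved in both directions. Nuclear effectors and targets rose in 4 of 17 cases and fell in 2. Of the nuclear factors, Lef1 rose with 9.5, 9.79 and 9.33 in undivided bulge against 6.72, 6.73 and 6.74 in non-bulge (2.81 ± 0.46), and Tle1, a co-repressor, rose by 1.49 ± 0.43. The feedback target Axin2 fell, with 9.12, 9.29 and 9.19 in undivided bulge against 11.17, 10.68 and 11.53 in non-bulge (-1.93 ± 0.23). Ctnnb1, which encodes beta-catenin, changed by 0.29, Myc by -0.21 and Ccnd1 by -0.28, none of which passed.

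**Figure D3:**
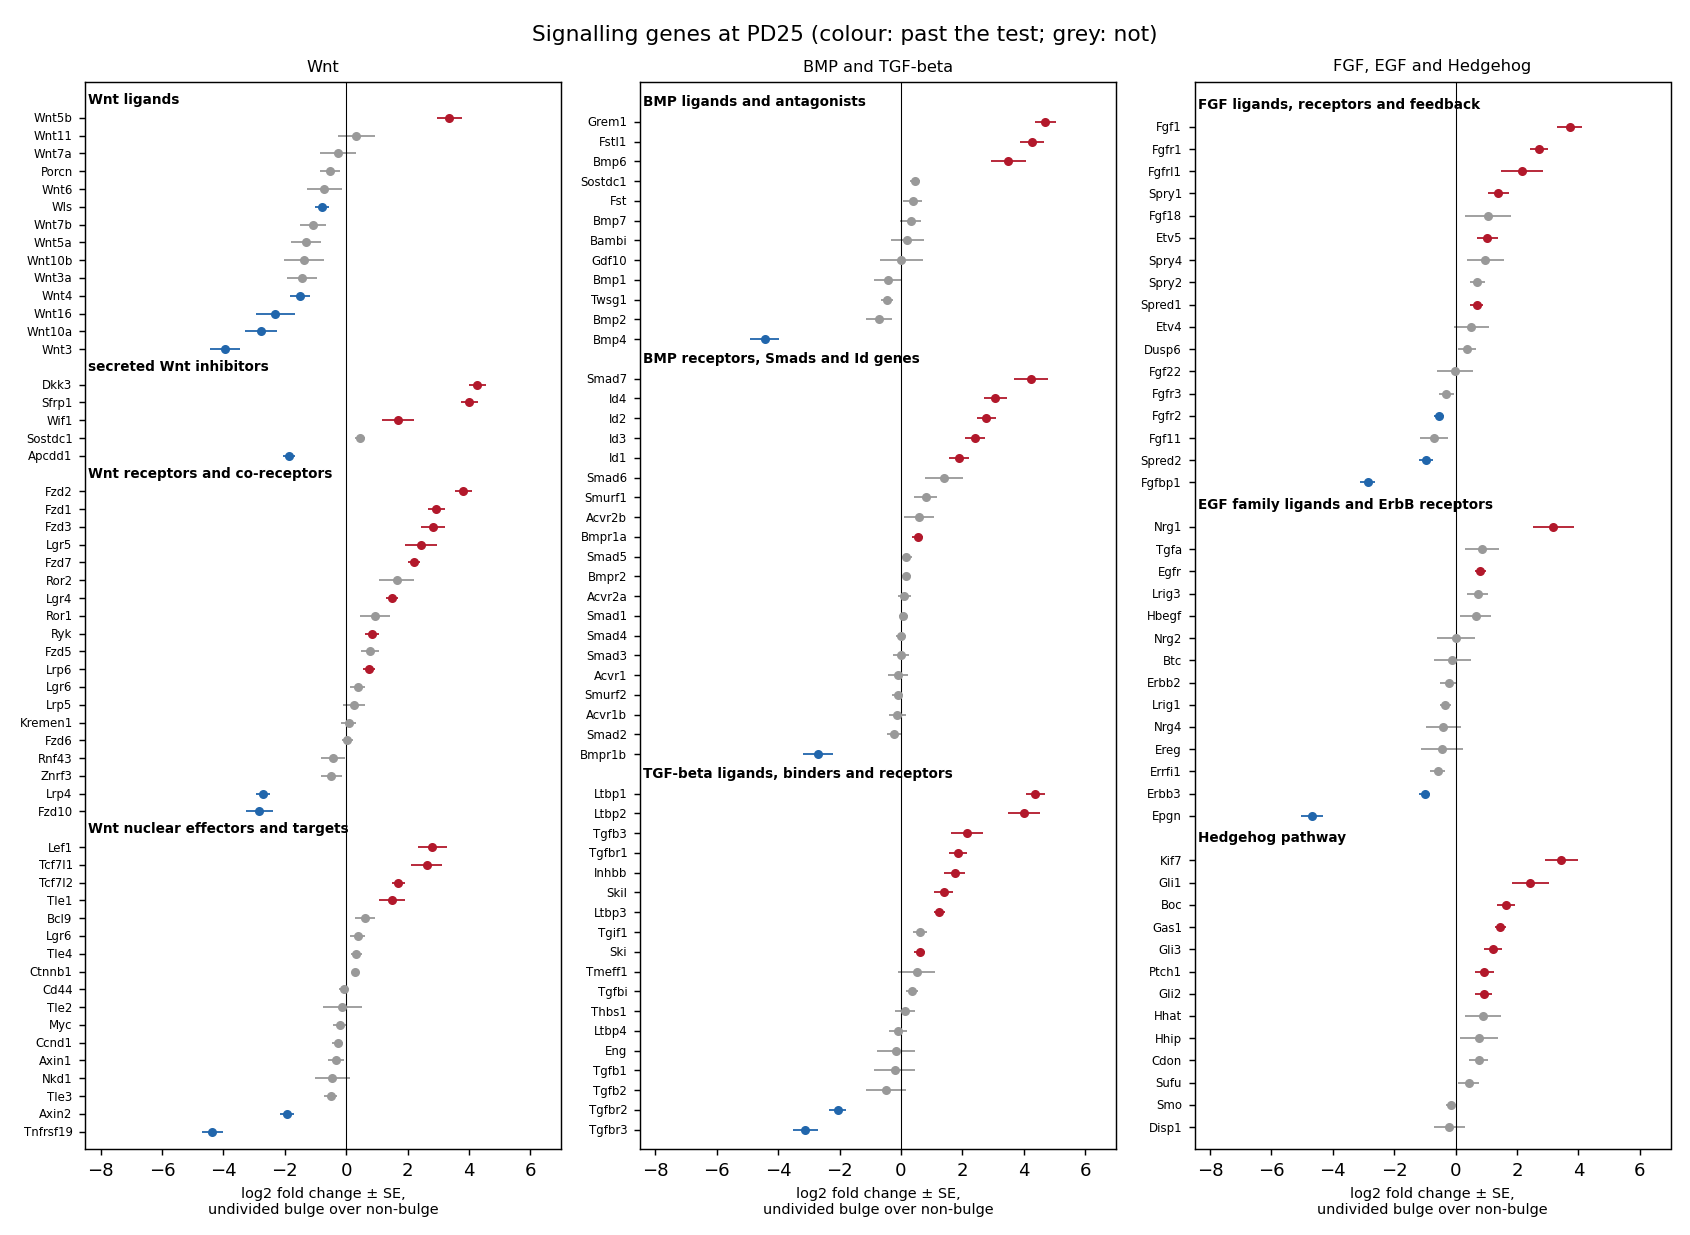
Log2 fold change of undivided bulge over non-bulge at PD25 with its standard error for the measured genes of the Wnt, BMP, TGF-beta, FGF, EGF and Hedgehog lists; red and blue points passed the test upward and downward, and grey points did not. Wnt3, Bmp4 and Epgn lie at the low end of their ligand groups, whereas Dkk3, Sfrp1, Fzd2, Grem1, Ltbp1 and Fgf1 lie at the high end of theirs.

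BMP ligands and antagonists were also split, with 3 of 12 higher and 1 lower. Bmp4 had 6.08, 4.90 and 5.33 in undivided bulge against 9.95, 9.70 and 9.98 in non-bulge (log2 fold change -4.44 ± 0.47), and Bmp6, a ligand known to hold bulge cells quiet, had 8.47, 9.22 and 8.50 against 5.34, 4.72 and 5.61 in the same order (3.5 ± 0.57). Grem1, a secreted BMP antagonist, had 11.96, 11.95 and 11.41 in undivided bulge against 7.33, 7.52 and 6.35 in non-bulge (4.71 ± 0.34), and Fstl1 rose by 4.26 ± 0.39. The 2 ligands therefore moved in opposite directions, each with no overlap between fractions. Id1 (1.88), Id2 (2.78), Id3 (2.42) and Id4 (3.08), the usual transcriptional targets of BMP signals, rose together, as did the inhibitory Smad gene Smad7 (4.23 ± 0.56). Smad1 and Smad5, which carry the BMP signal, changed by 0.08 and 0.17 without passing. In this list of receptors, Smads and Id genes, 6 of 20 rose and 1 fell, the receptor Bmpr1b, by 2.70 ± 0.50. The 6 include Bmpr1a (0.55 ± 0.18, adjusted p = 0.0498), whose call was lost with the mouse as a random effect (adjusted p = 0.172), with only the groups compared (adjusted p = 0.0759) and with no block (adjusted p = 0.365).

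The transforming growth factor beta (TGF-beta) list had 8 of 18 genes higher, 2 lower and a median of 0.56. Ltbp1 and Ltbp2, which hold latent TGF-beta in the matrix, rose by 4.38 ± 0.31 and 4.02 ± 0.52, and Ltbp3 by 1.25. The ligand gene Tgfb3 rose by 2.16 ± 0.52 and Inhbb, an activin subunit, by 1.75. The receptors went different ways, with Tgfbr1 at 10.86, 10.85 and 10.46 in undivided bulge against 9.33, 8.31 and 8.94 in non-bulge (1.86 ± 0.29) and Tgfbr2 at 8.27, 9.38 and 8.22 against 10.69, 10.75 and 10.61 (-2.06 ± 0.28). The co-receptor Tgfbr3 fell by 3.11 ± 0.41. The repressors Skil (1.39) and Ski (0.62) rose.

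Fibroblast growth factor (FGF) genes rose in 6 of 17 cases and fell in 3. Fgf1 had 9.96, 9.71 and 10.26 in undivided bulge against 5.69, 5.49 and 7.61 in non-bulge (3.71 ± 0.40). The receptor Fgfr1 rose by 2.72 ± 0.28 and the truncated receptor Fgfrl1 by 2.17, while Fgfr2, the main epithelial receptor, fell by 0.55 ± 0.16, a call lost with the mouse as a random effect (adjusted p = 0.106). Fgfbp1, a carrier that frees FGFs from the matrix, fell by 2.86 ± 0.25. Fgf18, a bulge ligand linked to follicle rest, changed by 1.05 and did not pass. Without mouse 1, 3 FGF genes passed in place of 9, and 5 without mouse 2 or mouse 3. In the EGF family the ligand Nrg1 rose by 3.19 ± 0.66 and the receptor Erbb3 fell by 1.01 ± 0.18, with 2 of 14 genes higher and 2 lower. Egfr rose by 0.81 ± 0.18, although its probe sets ranged from -0.52 to 1.63.

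Insulin-like growth factor binders rose for Igfbp5, Igfbp7 (2.48 ± 0.21) and Igfbp4 (0.84 ± 0.14), together with the binder-cleaving protease Pappa (2.82 ± 0.50). Igfbp3 (-1.97) and the protease Htra1 (-1.75) fell. The Hedgehog list had 7 of 13 genes higher, none lower and a median of 0.92. Gli1, the pathway's transcriptional read-out, stood at 8.99, 9.26 and 9.51 in undivided bulge against 4.12, 7.89 and 8.44 in non-bulge (2.44 ± 0.59), so its non-bulge value was much lower in mouse 1 than in mice 2 and 3. The co-receptors Boc (1.65 ± 0.28) and Gas1 (1.46 ± 0.19) rose, as did Kif7 (3.44), Gli2 (0.92) and the receptor and target Ptch1 (0.93 ± 0.30), whose call was lost with the mouse as a random effect (adjusted p = 0.0547). Without mouse 1, 4 Hedgehog genes passed in place of 7. Of 15 Notch genes, 4 rose and 2 fell. Hey1, a Notch target, rose by 3.30 ± 0.66 along with Lfng (1.64), Rbpj (1.31) and the ligand Jag1 (0.70), and the ligands Dll1 (-1.51 ± 0.26) and Dlk2 (-2.07) fell, whereas the receptors Notch1 (-0.53), Notch2 (-0.39) and Notch3 (-0.58) did not pass.

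Extracellular matrix genes rose more often than they fell. Collagen chains rose in 8 of 23 cases with none lower and a median of 0.70, and proteoglycans and matricellular proteins rose in 14 of 33 cases and fell in 3, with a median of 0.73. Col8a2 had 11.03, 11.78 and 10.99 in undivided bulge against 5.84, 6.29 and 5.06 in non-bulge. Col5a2 (4.03 ± 0.44), Col5a1 (3.41 ± 0.34), Col4a4 (2.77) and Col6a1 (2.64) rose with it. Col1a1 also rose, by 2.34 ± 0.53, with Col1a2 at 0.43 and Col3a1 at 0.80, neither of which passed. Ccn2, a matricellular target of Yap and TGF-beta, had 13.81, 13.09 and 13.29 in undivided bulge against 7.89, 10.02 and 7.63 in non-bulge (4.88 ± 0.51). The proteoglycans Cspg4 (4.13), Bgn (3.98), Gpc6 (3.73) and Sdc2 (2.77) and the secreted matrix protein gene Egfl6 (3.96 ± 0.34) rose. The antiangiogenic Thbs2 (-3.20), Efemp1 (-3.93) and Smoc2 (-2.09) fell. As given above, the summed dermal markers were also higher in undivided bulge, and their part in the matrix genes was not tested. That sum includes Sparc, which did not pass (0.41), and Crabp1, given above among the largest increases.

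Of 22 integrin and laminin genes, 5 rose and 1 fell. Integrin chains rose for Itga1 (3.40 ± 0.48), Itgb8 (2.98 ± 0.37), Itga2 (2.02) and Itgb6 (1.80), of which Itgb6 and Itgb8 can each activate latent TGF-beta, and the laminin chain Lamb1 rose by 1.32, whereas the laminin chain Lamc1 fell by 0.68 (adjusted p = 0.0497). Itgb1 (0.34) and Itgb4 (0.03) did not pass. Timp2, an inhibitor of matrix proteases, had 12.37, 12.05 and 12.05 in undivided bulge against 8.45, 7.95 and 8.0 in non-bulge (4.02 ± 0.25), in a list of metalloproteinases and inhibitors where 2 of 15 genes rose and 5 fell. The other rise was Mmp11 (2.00 ± 0.47), and the falls were Adam8 (-2.71), Adamts1 (-1.87), Mmp2 (-1.59), Mmp14 (-1.08) and Adam10 (-0.60). Without mouse 3, 4 metalloproteinase and inhibitor genes passed in place of 7. The calls of Adam10 (adjusted p = 0.053) and Mmp14 (adjusted p = 0.0696) were lost with the mouse as a random effect. Contractile and actin-linked genes rose in 12 of 27 cases and fell in 1, with a median of 0.84. Pdlim3, Csrp2 (3.97), Synpo2 (3.48), Pdlim7 (3.44), Actn1 (2.75 ± 0.22) and the myosin light chain gene Myl9 (2.34) rose. Acta2, the smooth muscle actin of the arrector muscle, changed by -0.80 and did not pass. Of 15 muscle markers on the array, 3 could be tested and none passed, and the part of muscle RNA in these values was not tested.

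Cell contact genes fell more often than they rose, at 6 against 1 of 30. The desmosomal cadherins Dsg2 (-1.60 ± 0.26) and Dsg1a (-1.06 ± 0.18) and the tight junction gene Ocln (-2.05 ± 0.41) fell, while Cdh1 (-0.34), Cdh3 (-0.02) and Jup (-0.11) did not pass. Without mouse 1, 4 contact genes passed in place of 7. Guidance molecules rose in 9 of 41 cases and fell in 6. Sema3e, a secreted repellent, had 12.79, 12.28 and 11.30 in undivided bulge against 7.10, 7.59 and 7.29 in non-bulge (4.80 ± 0.39), and the ephrin receptor Ephb1 rose by 4.77 ± 0.37. Robo1 (-2.78), its ligand gene Slit3 (-2.18), Sema3d (-2.77) and Ntn4 (-2.47) fell.

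Keratins moved in both directions, with 5 of 23 higher and 7 lower. Krt24 had 11.84, 11.83 and 12.23 in undivided bulge against 6.63, 8.91 and 8.61 in non-bulge (3.91 ± 0.42). Krt6a, of the companion and inner bulge layer, had 12.997, 13.04 and 13.09 against 8.85, 10.26 and 9.16 in the same order (3.62 ± 0.44). Krt75, also of the companion layer, rose by 1.85 ± 0.59, as did Krt8 (2.89) and Krt19 (2.29). The suprabasal pair Krt1 (-1.62 ± 0.23) and Krt10 (-0.69 ± 0.12) fell, and Krt10 was still at 14.36, 13.81 and 13.71 in undivided bulge against 15.43, 14.37 and 14.14 in non-bulge. Krt14 fell by 0.48 ± 0.14, Krt79 of the follicle mouth by 1.05 ± 0.35, and Krt16, the usual partner of Krt6a, by 1.86 ± 0.51. With the mouse as a random effect the calls were lost for Krt14 (adjusted p = 0.419), Krt10 (adjusted p = 0.209) and Krt79 (adjusted p = 0.0874), and with no block they were lost too (adjusted p = 0.658, 0.472 and 0.203). Keratin calls numbered 6 in place of 12 without mouse 1.

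Genes of the basal interfollicular epidermis fell in 8 of 17 cases and rose in 1, with a median of -0.99. Ly6d had 8.95, 9.23 and 9.86 in undivided bulge against 12.62, 12.94 and 12.70 in non-bulge (-3.40 ± 0.23). Ly6e (-3.35 ± 0.31), Avpr1a (-2.46), Tnfrsf21 (-1.80) and Dll1 fell with it. Of 38 genes of the cornified envelope and of differentiation, 8 fell and 6 rose, and the median was 0.01. Transglutaminase 3 (Tgm3, -3.46 ± 0.41) and the protease Klk11 (-2.87 ± 0.32) fell, whereas transglutaminase 5 (Tgm5) had 11.21, 11.26 and 11.82 in undivided bulge against 5.78, 7.65 and 7.54 in non-bulge (4.44 ± 0.35) and Calml3 rose by 4.0 ± 0.30. Late envelope genes Lce1b (3.36) and Lce1c (2.98) rose, whereas Lor (0.93), Flg (-0.02) and Ivl (-0.36) did not pass. Lce1 genes are close copies whose probe sets may share signal.

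Among 13 isthmus genes, 2 rose and 2 fell. Plet1 fell by 1.85 ± 0.27, while Lrig1 (-0.34) and Lgr6 (0.37) did not pass, and 2 genes of this list passed without mouse 1 in place of 4. Sebaceous lineage genes rose in 5 of 17 cases and fell in 3, with Pparg, the master regulator of the gland, at -1.76 ± 0.54 and the fatty acid elongase Elovl5 at 1.38 ± 0.18. Without mouse 1 or without mouse 2, 4 sebaceous genes passed in place of 8. Genes of the hair germ, the growth compartment just below the bulge, rose in 6 of 12 cases and fell in 1, and besides Lef1, Lgr5, Gli1 and Ptch1 the rises were Edn2 (2.16) and Pdgfa (1.11), and the fall was Ccnd2 (-0.49). Without mouse 1, 3 hair germ genes passed in place of 7. With the mouse as a random effect the Ccnd2 call was lost (adjusted p = 0.41).

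**Figure D4:**
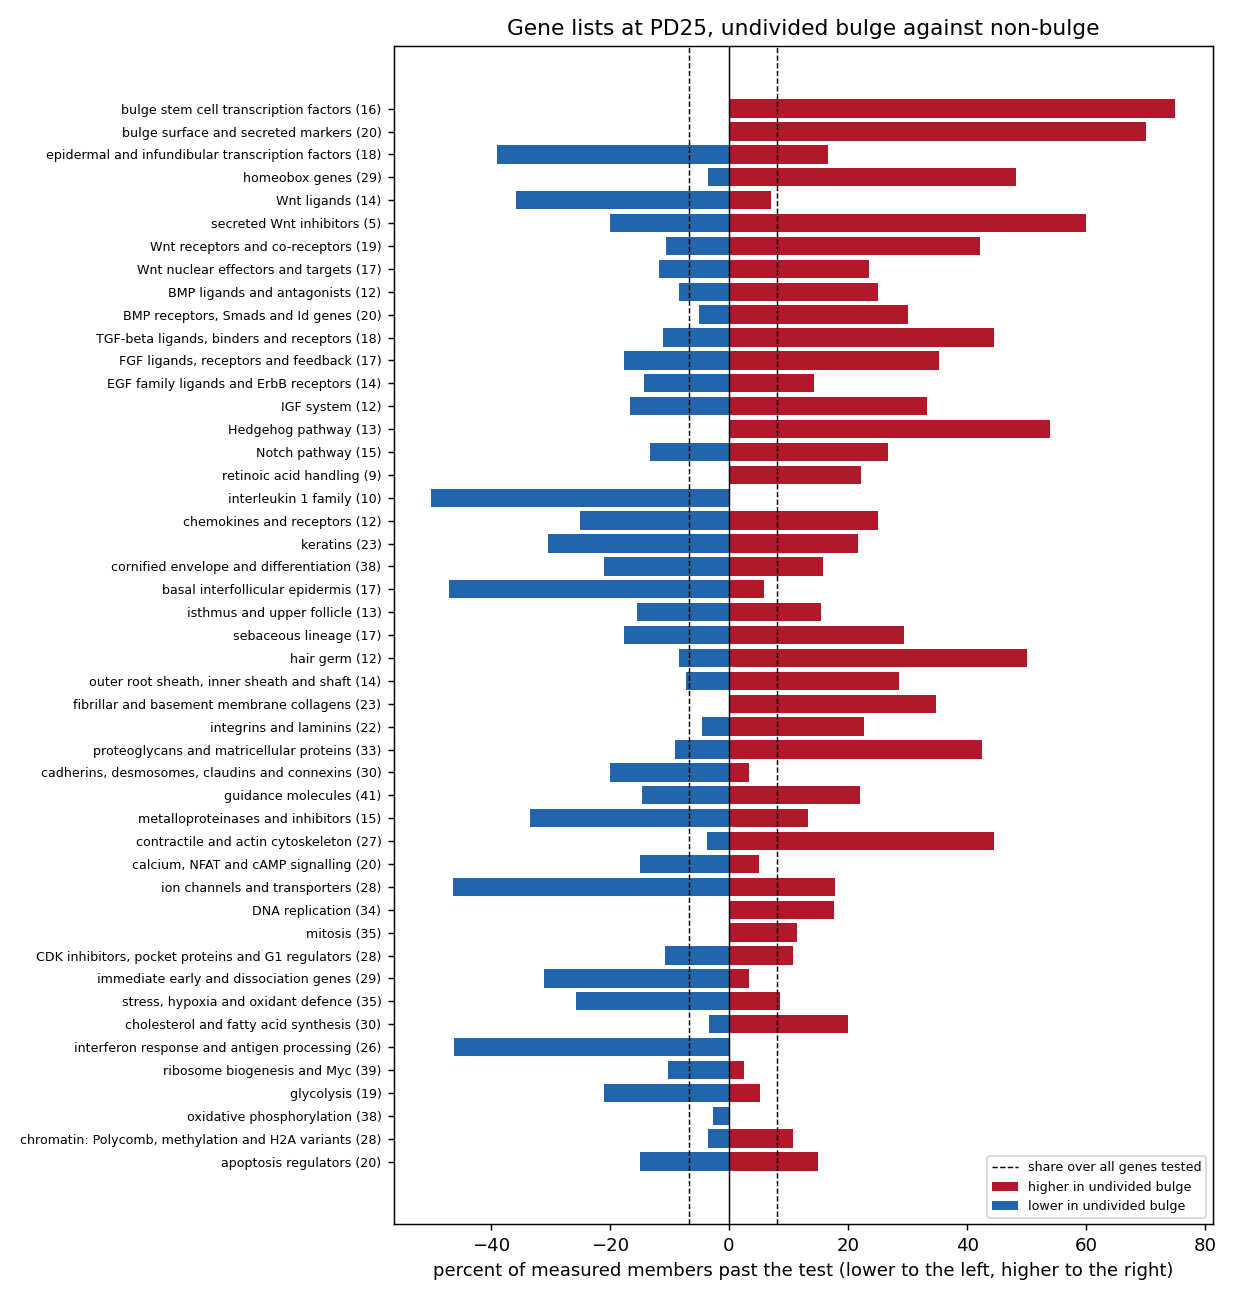
Share of the measured members of each gene list that passed the test at PD25, with members higher in undivided bulge to the right of 0 and lower to the left, and the number measured in brackets; dashed lines mark the shares over all genes tested, 8.03% higher and 6.66% lower. The bulge factors (12 of 16) and bulge markers (14 of 20) reach farthest to the right, and the interleukin 1 family (5 of 10) and basal epidermis lists (8 of 17) farthest to the left.

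Immediate early genes, which respond to stimuli and also to cell dissociation, fell in 9 of 29 cases and rose in 1, with a median of -0.37. Fos had 10.12, 10.16 and 12.15 in undivided bulge against 12.73, 12.68 and 13.12 in non-bulge (-2.03 ± 0.47, adjusted p = 0.00363). Fosb (-2.14 ± 0.58), Atf3 (-1.99 ± 0.47) and Fosl1 (-1.97 ± 0.58) fell too, whereas their dimer partners Jun (-0.17), Junb (0.21) and Jund (-0.05) did not pass. The undivided bulge array of mouse 3 was the highest of its group for Fos, Fosb and Atf3. Without mouse 1 or without mouse 2, 4 genes of this list passed in place of 10. How long each fraction spent in dissociation and sorting was not analysed here.

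Fos and Jun proteins bind as pairs, known as AP-1, to the sequence TGAGTCA. That motif, on either strand, was present in the 300 bases around the start of 5.54% of the genes that fell and had a listed promoter (34 of 614), of 2.36% of those that rose (17 of 721), of 3.55% of all tested genes (333 of 9377) and of 5.17% of all 27025 promoters listed by RefSeq. For genes that fell, genes that rose and all tested genes, the shares were 2.93%, 1.80% and 2.22% for TAATTA, 12.5%, 11.4% and 12.0% for TGTGGT, 12.1%, 10.4% and 11.6% for CTTTGA and 21.5%, 19.1% and 20.4% for GGAAAA, each with its reverse complement. All shares describe letters in a fixed window and were not tested. The 250 bases upstream of the start are shown for 3 genes that fell (Il1rn, Cxcl10 and F2r) and for Wnt5b, which rose, because each holds the motif, printed in capitals. The sequences are from RefSeq on build GRCm38.p6, 5′ to 3′ on the gene's strand. They lie at chr2:24336610-24336859 on the plus strand for Il1rn, chr5:92348890-92349139 on the minus strand for Cxcl10, chr13:95618467-95618716 on the minus strand for F2r and chr6:119544348-119544597 on the minus strand for Wnt5b.
Il1rn: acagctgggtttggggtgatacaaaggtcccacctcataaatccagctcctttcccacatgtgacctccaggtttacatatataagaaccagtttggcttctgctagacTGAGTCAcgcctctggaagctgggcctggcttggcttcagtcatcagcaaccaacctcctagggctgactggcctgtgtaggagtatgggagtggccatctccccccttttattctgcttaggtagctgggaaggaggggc
Cxcl10: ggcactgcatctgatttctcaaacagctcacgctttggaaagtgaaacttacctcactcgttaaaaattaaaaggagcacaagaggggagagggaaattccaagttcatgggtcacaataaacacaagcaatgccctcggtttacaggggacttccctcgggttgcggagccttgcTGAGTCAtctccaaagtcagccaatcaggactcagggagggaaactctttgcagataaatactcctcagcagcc
F2r: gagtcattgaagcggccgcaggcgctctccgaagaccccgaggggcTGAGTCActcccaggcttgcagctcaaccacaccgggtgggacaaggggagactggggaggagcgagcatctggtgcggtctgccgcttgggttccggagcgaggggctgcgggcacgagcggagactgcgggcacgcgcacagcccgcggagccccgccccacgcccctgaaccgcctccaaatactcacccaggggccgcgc
Wnt5b: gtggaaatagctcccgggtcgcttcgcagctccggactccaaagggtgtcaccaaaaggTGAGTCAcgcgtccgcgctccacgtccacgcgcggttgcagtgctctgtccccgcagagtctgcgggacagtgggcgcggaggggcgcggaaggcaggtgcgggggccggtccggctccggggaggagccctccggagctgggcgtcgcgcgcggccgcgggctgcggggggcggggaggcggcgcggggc

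Interleukin 1 family genes fell in 5 of 10 cases with none higher, and their median was -1.67. Il1rn, the secreted receptor antagonist whose upstream sequence is given above, had 8.85, 8.10 and 8.18 in undivided bulge against 11.10, 11.27 and 10.93 in non-bulge (-2.72 ± 0.32). Il33, a nuclear alarmin of keratinocytes, had 5.90, 7.48 and 6.2 against 11.23, 10.97 and 10.81 in the same order (-4.47 ± 0.38). With Il1r2, both a decoy receptor and an antagonist were therefore lower, by wide margins in all 3 mice. Nfkbiz (-1.95) and Il1f9 (-2.16) also fell.

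Interferon response and antigen processing genes fell in 12 of 26 cases with none higher, and the median was -1.09. The immunoproteasome subunit Psmb8 had 8.18, 9.07 and 9.28 in undivided bulge against 10.68, 11.52 and 10.80 in non-bulge (-2.16 ± 0.30). The class I heavy chains H2-D1 (-1.47 ± 0.20) and H2-K1 (-1.27 ± 0.17) fell along with their light chain B2m (-0.81 ± 0.13), Tapbp (-0.84) and the factor Irf1 (-1.80). Probe sets of class I genes can share signal, and those of H2-K1 ranged from -2.15 to 0.69. Cxcl10, an interferon-induced chemokine, had 4.35, 4.78 and 4.78 in undivided bulge against 7.44, 8.48 and 5.99 in non-bulge (-2.67 ± 0.61). Of 12 chemokine and receptor genes, 3 rose and 3 fell. The receptor Cxcr4 rose, with 10.59, 10.40 and 10.93 against 5.59, 7.09 and 6.70 in the same order (4.18 ± 0.47), as did Cxcl14 (2.13), and Cxcl1 fell by 2.74 ± 0.51. Without mouse 2, 8 interferon genes passed in place of 12.

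Ion channels and transporters fell in 13 of 28 cases and rose in 5, with a median of -1.03. The serotonin transporter Slc6a4 had 6.78, 7.41 and 7.09 in undivided bulge against 11.13, 10.99 and 10.89 in non-bulge (-3.91 ± 0.29). Slc16a9 (-3.76), Clca2 (-3.69), Slc24a3 (-2.97) and the chloride channel Ano1 (-2.94 ± 0.32) fell, while the calcium channel Trpv4 (2.81) and the taurine transporter Slc6a6 (1.53 ± 0.20) rose. The glucose transporter Slc2a1 fell by 0.87 ± 0.14 and the lactate transporters Slc16a1 and Slc16a3 by 0.94 and 2.02, whereas hexokinase 2 (Hk2) rose by 1.98 ± 0.36, in a glycolysis list with 1 of 19 genes higher and 4 lower. Of 38 oxidative phosphorylation genes 1 fell and none rose, with a median of -0.10. Without mouse 3, 2 glycolysis genes passed in place of 5. Fads1, a fatty acid desaturase, had 11.21, 11.17 and 11.37 in undivided bulge against 6.34, 6.37 and 7.28 in non-bulge (4.59 ± 0.42), in a lipid synthesis list where 6 of 30 genes rose and 1 fell. Without mouse 1, 4 of that list passed in place of 7.

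Stress and oxidant defence genes fell in 9 of 35 cases and rose in 3. The hypoxia-linked genes Epas1 (-2.93 ± 0.32), Egln3 (-2.94 ± 0.29) and Adm fell, although Hif1a (0.36) and Vegfa (-0.08) did not pass. Adm had 8.67, 6.62 and 7.80 in undivided bulge against 12.75, 11.99 and 11.76 in non-bulge. The glutathione synthesis genes Gclm (1.69) and Gclc (1.10) rose together with Nqo1 (1.31), all 3 known targets of Nrf2, while the metallothioneins Mt1 (-1.15), Mt2 (-1.70) and Mt4 (-1.66) fell, although metallothionein probe sets can share signal. Of 20 apoptosis genes, 3 rose and 3 fell, and both directions held genes for and against cell death. The survival gene Bcl2 rose by 0.87 ± 0.17, and so did the death-promoting Bok (1.28) and Bcl2l11 (0.74). The death-promoting p53 target Pmaip1 fell by 3.11 ± 0.50, the death receptor Fas by 2.40 ± 0.58 and the death inhibitor Birc3 by 1.54. Apoptosis calls numbered 3 without the non-bulge array of mouse 1, and none passed in spike-in set A. Of 28 chromatin genes, 3 rose and 1 fell, a share of 14.3% that is near the 14.7% of all genes tested that passed. They were Cbx6 (2.90 ± 0.27), Hmga2 (2.34), Ezh1 (1.05) and Satb1 (-3.56 ± 0.38), a genome organiser of epidermal differentiation. Ezh2 (-0.20) and Dnmt1 (0.22) did not pass, and 2 chromatin genes passed without mouse 1 in place of 4. A list of ribosome biogenesis and Myc family genes had 4 of 39 lower, 1 higher and a median of -0.49. Its share of calls, 12.8%, was also near that of all genes tested. The rise was Mycn (2.30), and the falls were Mycl (-2.08) and the biogenesis genes Heatr1 (-1.01), Nolc1 (-0.71) and Noc2l (-0.62). Of the 39, 1 passed without mouse 1 and 2 without mouse 2 or with arrays centred on their medians, in place of 5.

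DNA replication and mitosis genes gave no downward call at PD25, although the undivided bulge cells were selected for the absence of division. Of 34 DNA replication genes, 6 rose (17.6%) and none fell (median 0.48), and of 35 mitosis genes, 4 rose (11.4%) and none fell (median 0.57). Over all genes tested, 8.03% rose and 6.66% fell. Mki67, the standard proliferation marker, had 13.74, 13.12 and 12.70 in undivided bulge against 13.14, 13.05 and 12.71 in non-bulge (0.22 ± 0.19, adjusted p = 0.535). Its groups overlapped. Ccna2, a cyclin of S phase and G2, had 11.97, 11.93 and 11.86 in undivided bulge against 10.14, 11.67 and 11.23 in non-bulge (0.91 ± 0.29). Tk1 (1.23 ± 0.27), Rrm2 (0.93 ± 0.20), Cdca3 (1.41 ± 0.41), Spc25 (0.90 ± 0.28) and Cdca8 (0.57) rose, although the calls of Ccna2 (adjusted p = 0.0547) and Cdca8 (adjusted p = 0.283) were lost with the mouse as a random effect. These calls depended on single mice, since no mitosis gene passed without mouse 1, without mouse 3 or in the fit without the mouse block, 7 passed with arrays centred on their medians, and 2 DNA replication genes passed without mouse 3, 3 without mouse 1 and 1 without the mouse block. Among cell cycle brakes, Rb1 rose by 1.46 ± 0.30, Cdkn1a fell by 1.04 ± 0.24 and Cdkn1b changed by 0.73 without passing.

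The same fractions of 3 other mice at PD21 gave 1926 called genes (16.6%), 1043 higher (9.02%) and 883 lower (7.63%) in undivided bulge, and 1131 without mouse 1 of that age. With calls at both ages, 1157 genes moved the same way and 2 moved opposite ways. The 1157 make up 68.1% of the PD25 calls and 60.1% of the PD21 calls. At PD25 and PD21 the log2 fold change was 4.19 and 4.11 for Lhx2, 4.20 and 4.53 for Tbx1, -4.44 and -3.90 for Bmp4, -3.95 and -3.54 for Wnt3 and -4.47 and -4.45 for Il33. The sex-linked genes separated the ages, as all 9 PD25 arrays had Xist signals of 4.2 to 75.5 and Eif2s3y signals of 2401.5 to 4777.7, against 7043.9 to 25791.3 and 2.7 to 24.5 on all 9 PD21 arrays. The labels do not give the sex, and age and sex cannot be told apart in any difference between PD25 and PD21, whereas each comparison within an age is within 1 pattern.

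The test of the difference between ages passed for 2 genes (0.0173% of those tested), with 800 at an unadjusted p under 0.05. Leaving out PD25 mouse 1 or any PD21 mouse left none, as did the fits without the mouse block or with it as a random effect, and leaving out PD25 mouse 3 gave 7, of which 4 were higher and 3 lower at PD25. Fcgbp, which encodes a secreted protein that binds the Fc part of IgG, had a log2 fold change of -4.04 ± 0.26 at PD25, against -1.60 ± 0.26 at PD21. Sparc, a collagen-binding matrix protein, stood at 0.41 ± 0.24 at PD25, against 2.38 ± 0.24 at PD21. For both, the undivided bulge values were lower at PD25, at 8.80, 8.27 and 9.17 against 12.11, 10.91 and 11.27 at PD21 for Fcgbp and 13.33, 12.86 and 12.87 against 14.76, 14.26 and 13.67 for Sparc. No other gene passed this test.

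Fold changes were above 0 for 34 of 35 mitosis genes at PD25, against 1 of 35 at PD21, where 8 fell and the median was -0.80. For DNA replication genes the counts above 0 were 32 of 34 at PD25 and 7 of 34 at PD21, where 3 fell and the median was -0.32. Mki67 changed by 0.22 at PD25 and by -0.96 at PD21, a difference of 1.18 ± 0.26 that did not pass (adjusted p = 0.255). An unadjusted p under 0.05 for a higher effect at PD25 was found in 27 of 35 mitosis genes and 14 of 34 replication genes, and in 438 of all 11569 genes. Such genes move together and are not independent, and none of them passed after adjustment. Immediate early genes fell in 9 of 29 cases at PD25 and in none at PD21, where 3 rose, again with no member past the test of the difference. Over all genes tested, 6.66% fell at PD25, and at PD21 7.63% fell and 9.02% rose. The 10 immediate early calls of either direction at PD25 became 2 without the undivided bulge array of mouse 1. The sebaceous genes Elovl6 (0.05 at PD25, -1.65 at PD21) and Fa2h (0.90 at PD25, -0.96 at PD21) were among the 10 genes with the lowest p for the difference, and neither passed.

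**Figure D5:**
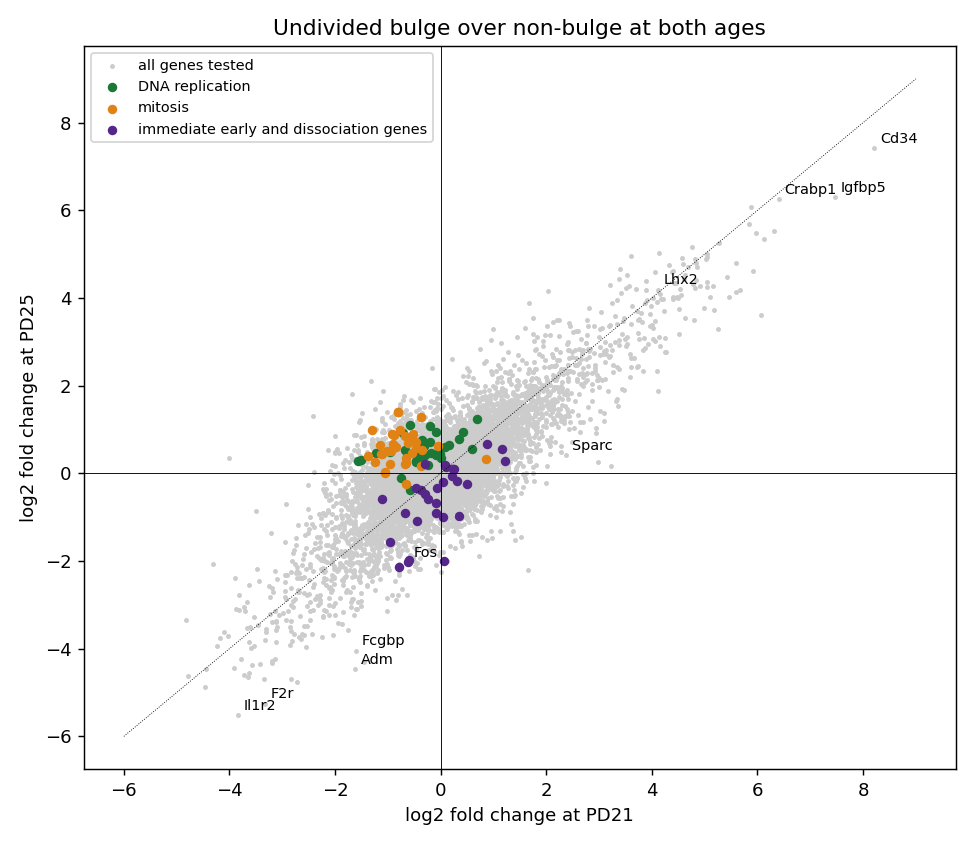
Log2 fold change of undivided bulge over non-bulge at PD25 (y axis) against PD21 (x axis), each from 3 separate mice, for all genes tested (grey); DNA replication (green), mitosis (orange) and immediate early genes (purple) are coloured, and the dotted line marks equal changes. Nearly all mitosis genes sit above 0 on the PD25 axis and left of 0 on the PD21 axis, and Fcgbp and Sparc lie well below the dotted line.

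Divided bulge cells of the same PD25 mice differed from undivided ones in 10 genes (0.0864%), all higher in divided cells, with 1020 at an unadjusted p under 0.05. This comparison shares its undivided arrays with the main one, so its values are set beside those of the main one without a test of their overlap. Ntn4, a netrin of basement membranes, had 12.01, 10.20 and 10.01 in divided bulge, 9.06, 8.44 and 8.31 in undivided bulge and 10.86, 11.13 and 11.21 in non-bulge, with a divided minus undivided difference of 2.14 ± 0.33. F2r had 9.06, 10.13 and 7.53 in divided bulge, 6.83, 8.01 and 6.02 in undivided bulge and 12.58, 12.16 and 11.89 in non-bulge (1.96 ± 0.34). Divided minus undivided differences were 2.36 for the hyaluronan-linked Itih5, 2.18 for Nptx1, 2.00 for Itpripl2, 1.59 for Fcgbp, 1.54 for Slc6a4, 1.5 for the protease Prss23, 1.42 for the glycan enzyme Man2a2 and 1.22 for Lrp4. The undivided minus non-bulge log2 fold changes of the 10 genes ran from -5.26 for F2r to -1.59 for Man2a2. The adjusted p ranged from 0.015 to 0.0371, and none of the 10 passed without mouse 1, whereas 47 genes passed without mouse 2 and 26 without mouse 3. The single direction of these calls depended on mouse 2, since the 47 were 28 higher and 19 lower in divided cells, and 12 higher and 17 lower passed without its divided array. Crabp1, at 8.08, 8.91 and 8.55 in divided bulge against 11.12, 10.81 and 10.06 in undivided bulge, did not pass (-2.15 ± 0.55, adjusted p = 0.132).

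Divided bulge and non-bulge at PD25 differed in 1428 genes (12.3%), 877 higher (7.58%) and 551 lower (4.76%) in divided bulge, a comparison that shares its non-bulge arrays with the main one. Against non-bulge, Lhx2 had log2 fold changes of 4.51 for divided and 4.19 for undivided bulge, and Tbx1 of 4.17 for divided and 4.20 for undivided bulge. Il1r2 had -3.18 for divided and -5.52 for undivided bulge, and Bmp4 had -3.10 for divided and -4.44 for undivided bulge. The divided minus undivided difference did not pass for any of these 4 genes, with an adjusted p of 0.797 for Lhx2, 0.992 for Tbx1, 0.058 for Il1r2 and 0.342 for Bmp4. For Mki67 the values were -0.01 for divided and 0.22 for undivided bulge. Of the 35 mitosis genes and the 34 DNA replication genes, none passed between divided bulge and non-bulge, with medians of -0.03 and -0.22.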

How the data were processed

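RNA of sorted skin cells was measured on 18 Affymetrix Mouse Genome 430 2.0 arrays, 3 mice at each of 2 ages with 3 fractions a mouse, of which 6 arrays carry the main comparison. The deposited values are linear intensity signals from GCOS, named with no version in the submitters' processing notes, and each array has a 2% trimmed mean of 500. Signals were taken as log2(signal + 16). Probe sets were kept when above their array's median on at least 3 arrays, and each gene was represented by its probe set of highest mean, which left 11569 genes of 18193. Gene symbols came from the platform annotation: of 45101 probe sets, 34945 had 1 symbol, 932 several and 9160 none listed, besides 64 controls.

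All 18 arrays were fitted with limma 3.58.1 in R 4.3.3 with a mouse block and a variance trend, and p-values were adjusted by Benjamini-Hochberg over all genes at a threshold of 0.05. The mouse numbers in the titles give the pairing. At PD25, deviations of undivided bulge and non-bulge arrays with the same number correlated at 0.265, 0.0745 and 0.198, and those with different numbers at -0.224 to 0.0579. The number of arrays limits the precision. Tested on simulated data for the main comparison over 11569 genes, the fit recovered 28% of changes of 1 log2 unit and 69% of changes of 2 log2 units, with 3 false calls among 100. The simulation gave a change to far fewer genes than passed in the data, so these shares need not hold for the data.

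The members and gene lists were chosen with earlier results of these data known. Genes named were the 15 largest changes per direction among called genes that were bright, without overlap and of the same sign in 3 mice, up to 6 called members per direction of each list with unpassed members given as such, a fixed set of skin markers, and the 10 lowest p for the age and division contrasts. Nfib, Cd200, Npnt, Postn, Tfap2c, Dlx5, Irx4, Irx5, Ryk, Lrp6, Ltbp3, Ski, Gli2, Myl9, H2-D1, H2-K1, B2m, Tapbp and Mt1 lie outside this rule and were added after their values were seen. Promoter sequences are RefSeq's, 250 bases before to 50 after each start. Alternatives covered the block, the samples fitted, the pseudocount, the filter, normalization, weights, the probe set rule and leaving out arrays. Protein sequences were not used here. Figures were drawn with matplotlib 3.10.9.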

Additional observations from a re-analysis of the deposited data

Results flagged for a closer look

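The undivided bulge effect differed between the ages for 2 genes by limma's interaction test. No gene passed it with no replicate block, with the replicate block as a random effect, without the variance trend, with probe sets averaged, or with PD25 mouse 1 or any PD21 mouse left out. For Fcgbp the effect at PD25 minus that at PD21 was -2.448 ± 0.37 log2 units (adjusted p = 0.015), with non-bulge values of 14.00, 11.99 and 12.39 at PD25, against 13.27, 12.77 and 13.05 at PD21. For Sparc it was -1.973 ± 0.34 (adjusted p = 0.0457), with non-bulge values of 12.93, 12.96 and 11.94 at PD25, against 11.69, 12.27 and 11.58 at PD21. In both genes the non-bulge values of the ages overlapped and the undivided bulge values did not. Sparc is also among the dermal markers, and Xist and the Y-linked genes separated the ages, so age and the sex-linked pattern cannot be told apart. The part of dermal RNA was not tested.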

How the results depend on the processing

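The main count of 1700 stayed within 1.5 times under every alternative with all arrays, from 1220 with no replicate block to 1965 with array weights. Its range with arrays left out was 1049 to 1537, and it was 796 in spike-in set A and 1118 in set B, sets chosen after seeing the data. At PD21 the count of 1926 was 1278 with no replicate block, 1131 to 1567 with arrays left out (1266 without the undivided bulge array of mouse 1), 1277 in set A and 552 in set B. Centring arrays on the median moved the share of higher calls at PD21 to 68.8% (1275 higher, 578 lower), against 54.2% in the reported fit, and at PD25 to 63.0%, against 54.6%. The median log2 fold change of all genes was then 0.124 at PD21 and 0.074 at PD25. The 2 calls for the difference between ages became 0 with no replicate block, with the replicate block as a random effect, without the variance trend or with probe sets averaged, 1 with a pseudocount of 1, a filter of 9 arrays, median centring or array weights, and 4 when only the groups compared were fitted. They ranged from 0 to 7 with arrays left out (5 without the PD25 undivided bulge array of mouse 3), and were 22 in set A and 0 in set B. The 10 calls for divided against undivided bulge became 0 with no replicate block or when only the groups compared were fitted, 21 with the replicate block as a random effect, 18 with a pseudocount of 64, 17 with no filter, 3 with median centring, 1 without the variance trend and 35 with array weights. They ranged from 0 to 47 with arrays left out (26 without mouse 3), and were 96 in set A and 0 in set B. The balance of directions did shift: calls at PD25 were 388 higher and 408 lower in set A, against 929 higher and 771 lower in the reported fit, and those for divided against undivided bulge were 12 higher and 17 lower without the divided array of mouse 2. No named gene that passed in the reported fit or under an alternative changed sign between them, while up to 3 named genes that passed in neither did so under an alternative. With no replicate block 62 named calls were lost, and 19 with the replicate block as a random effect. Of the 310 named genes that passed, 230 passed under every alternative with all arrays in which they were tested. Under all 23 alternatives, again where tested, 155 passed. The filter of 9 arrays left 314 of the 327 named genes to test. The causes were not tested. With 3 mice, changes of 1 log2 unit were often missed in simulated data, so genes that did not pass are not shown to be equal, and dim genes are compressed by the pseudocount.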

Other observations

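The outer root sheath, inner sheath and shaft list had 4 of 14 genes higher and 1 lower in undivided bulge, with a median of 0.04. Retinoic acid handling genes rose in 2 of 9 cases and fell in none, with Crabp2, a binder related to Crabp1, at a log2 fold change of 1.46. Calcium, NFAT and cAMP signalling genes rose in 1 of 20 cases and fell in 3, among them Pde4b, which degrades cAMP (-2.39), and the calcium release channel Itpr2 (-1.32), and 2 passed without mouse 1 in place of 4. Regulators of G1 rose in 3 of 28 cases and fell in 3, with the growth arrest gene Gadd45g at 2.73 and the cyclin gene Ccnd3 at 1.15. Calls of either direction were 22.2% of the retinoic acid list, 20% of the calcium list and 21.4% of the G1 list, against 14.7% of all genes tested. These shares were not tested.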
